A study of Mus musculus with 12 samples.

Results

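Genes of fibroblast growth factor (FGF) signalling were followed in 12 libraries of polyadenylated RNA from immortalized mouse embryonic fibroblasts (MEFs). The members were chosen by gene symbol: the numbered Fgf genes other than Fgf21, the receptors Fgfr1, Fgfr2, Fgfr3, Fgfr4 and Fgfrl1, the Sprouty and Spred genes, the phosphatases Dusp4, Dusp5 and Dusp6, and the Pea3 factors Etv1, Etv4 and Etv5. The rule found 38 of the 34866 genes in the deposited table, of which 21782 are protein-coding in the GENCODE annotation of the GRCm38 genome. Spry3 was not analysed here. The libraries fall into 4 groups of 3, labelled WT_M and WT_F (male and female cells, Sirt3+/+) and KO_M and KO_F (male and female cells, Sirt3-/-). Sirt3 encodes a deacetylase of the mitochondria. All cells came from 13-day embryos of 129S1/SvImJ WT and Sirt3-/- stocks, were immortalized with a stably transfected plasmid that carries the SV40 T antigen (the labels name the plasmid by its SV40 promoter), and were harvested at passage 6, 48 h after seeding. No source used here states how many lines stand behind a group. The paper calls the cells stable lines and reports seeding them in triplicate wells, so the 3 libraries of a group appear to be replicate wells. The p-values below then measure the spread between wells, which may be technical, and not that between embryos or lines. If each group is 1 line, then sex, genotype and line cannot be told apart. Male cells and female cells below mean these groups.

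Expression is given in TPM, each gene's share of the library's transcripts corrected for transcript length and scaled to a sum of 1000000, which allows levels of different genes to be compared. TPM hold no read totals, so the depth of each library is unknown and no counting error can be attached to a value. Between 12256 and 12637 genes reached 1 TPM per library, and each of the 12 libraries had its nearest neighbour within its own group. Sirt3 (ENSMUSG00000025486.17, chr7:140863666-140882309) ranged from 6.59 to 9.07 TPM in the libraries labelled WT_M, 8.88 to 11.0 in KO_M, 7.40 to 8.69 in WT_F and 7.57 to 9.06 in KO_F. Its total mRNA showed no fall with the KO label in either sex, and the names KO_M and KO_F denote libraries so labelled throughout. These RNA values do not measure the Sirt3 protein, for which the paper shows a representative immunoblot. Of 12 fibroblast markers, 11 had a mean of at least 1 TPM in every group, the exception being Lum. Their summed level ran from 9215 to 10328 TPM in WT_M, 11968 to 12703 in KO_M, 8083 to 8272 in WT_F and 10348 to 10675 in KO_F. From WT_M to KO_M, mean Col1a1 rose from 3184 to 4807 TPM and mean Postn from 123 to 555. The means of Col3a1, Pdgfra, Pdgfrb, Thy1 and Dcn also rose. Those of Col1a2 (1303 and 1284), Vim (3109 and 3113) and Fn1 (1265 and 1297) changed little, and Fap fell from 2.86 to 1.72. A list of 6 epithelial markers summed to 76.1 to 77.8 TPM in WT_M against 7.90 to 8.78 in KO_M, and to 19.8 to 22.9 in WT_F against 7.40 to 10.3 in KO_F, most of it from Krt19, whereas the group means of Cdh1 and Krt8 stayed under 1 TPM. A list of 6 kidney or mesothelial markers summed to 38.5 to 48.0 TPM in WT_M, 57.2 to 60.4 in KO_M, 20.6 to 23.8 in WT_F and 13.1 to 15.0 in KO_F. Its genes did not move together. Pax8 averaged 34.0 TPM in KO_M against 0.240 in WT_M, 0.360 in WT_F and 0.143 in KO_F. Pax2 averaged 3.77 TPM in KO_M and 0 in each other group. Msln averaged 28.7 TPM in WT_M, 1.30 in KO_M, 12.6 in WT_F and 5.63 in KO_F. Emx2 averaged 12.5 TPM in WT_M, 14.6 in KO_M, 5.32 in WT_F and 8.09 in KO_F. Wt1 averaged 1.45 TPM in WT_M, 4.83 in KO_M, 3.34 in WT_F and 0.479 in KO_F. The group means of Upk3b stayed under 1 TPM. Endothelial, immune and muscle lists (4 genes each) stayed at or below 5.76, 11.4 and 6.60 summed TPM, and the muscle list passed 1 TPM through Des in WT_F. The neural or glial list (4 genes) summed to 53.9 to 105 TPM, carried by Map2 and Tubb3. In such bulk RNA, fewer cells of a type and less RNA per cell cannot be told apart.

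Secreted FGFs bind receptor tyrosine kinases of the Fgfr family together with heparan sulfate on the cell surface. The activated receptor passes the signal through the adaptor Frs2, the GTPase Ras and the kinases Raf and MEK to ERK. ERK activity induces genes that act back on the pathway: Sprouty and Spred proteins restrain Ras and Raf, the phosphatases Dusp4, Dusp5 and Dusp6 remove phosphate from ERK, and the Pea3 factors Etv1, Etv4 and Etv5 transcribe target genes. In fibroblasts, FGF signalling is known for driving proliferation and for the exchange of signals with neighbouring epithelium.

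The cells held a narrow set of FGF ligands and a broad set of feedback genes. Of the 38 members, 21 averaged 1 TPM or more across all 12 libraries and entered the tests: 6 of 17 secreted ligands, 0 of 4 intracellular homologues, 4 of 5 receptors, 6 of 6 Sprouty and Spred genes, 3 of 3 phosphatases and 2 of 3 Pea3 factors. Fgfr1 had the highest level of all members, with a mean of 161 TPM, followed by Etv4 with 70.9, Dusp5 with 68.7 and Fgfrl1 with 67.0. Fgf7 led the ligands with a mean of 24.3 TPM and supplied 40.8% to 70.2% of their summed TPM in a library. The intracellular homologues Fgf11, Fgf12, Fgf13 and Fgf14, which act inside the cell and not through the receptors, summed to between 0.243 and 1.11 TPM. Among the 17 members under the filter, Etv1 alone reached 1 TPM in a group mean, with 1.04 ± 0.807 TPM in WT_M, 0.375 ± 0.190 in KO_M, 0.638 ± 0.458 in WT_F and 1.39 ± 0.322 in KO_F (SD, n = 3 each). Its value of 1.97 TPM in WT_M replicate 3 stood above the 0.577 and 0.575 TPM of the other WT_M libraries. Fgf9 reached 1.56 TPM in WT_M replicate 1 and Fgf1 1.40 TPM in WT_F replicate 2, and outside Etv1 every other value of the untested members was under 1 TPM.

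**Figure D1:**
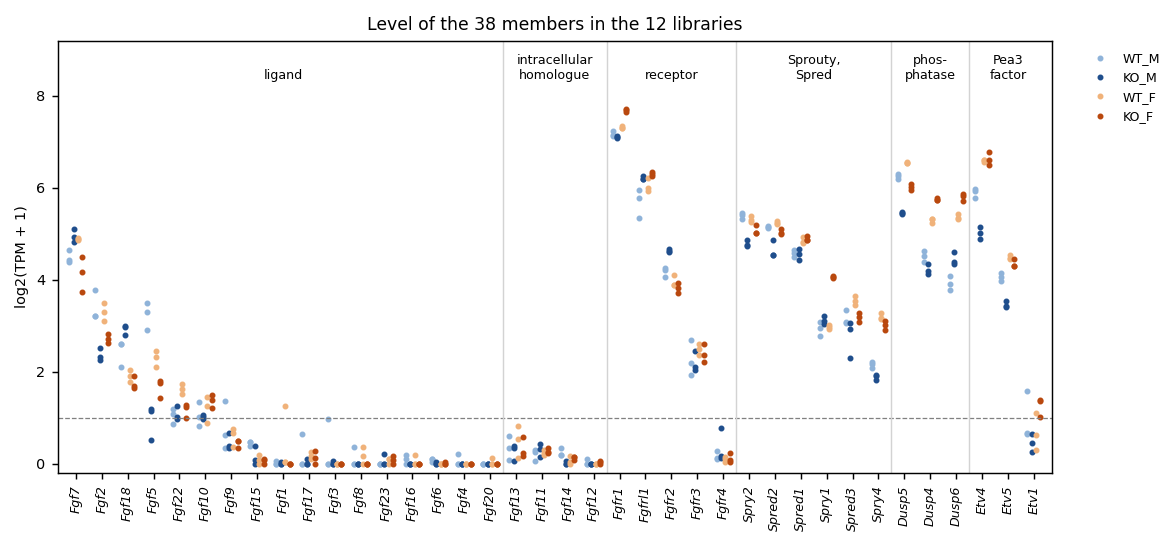
Level of each of the 38 members in each of the 12 libraries, as log2(TPM + 1) on the vertical axis, with members ordered by role and by mean TPM on the horizontal axis and 1 point per library coloured by group. The dashed line marks 1 TPM. Of the ligands, 6 have a mean on or above it, whereas every Sprouty, Spred and phosphatase gene does, with Fgfr1 at the top at a mean of 161 TPM.

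Log2 fold changes below are on the log2(TPM + 1) scale, which understates changes of genes near 1 TPM, and a member was called where limma's p, adjusted by Benjamini-Hochberg over the 12504 genes averaging 1 TPM or more, was under 0.05. Between KO_M and WT_M, 11 of the 21 tested members were called (52.4%), against 21.6% of all tested genes. Fgfrl1, Dusp6, Fgf7 and Fgfr2 were higher in KO_M, against 10.7% of all genes called higher, and Fgf5, Fgf2, Etv4, Dusp5, Spry2, Etv5 and Spred2 were lower, against 10.9% called lower. The median log2 fold change over the tested members was -0.07 and the median absolute change 0.46, beside -0.02 and 0.17 over all tested genes. Between KO_F and WT_F, 7 of 21 were called (33.3%), against 11.5% of all tested genes. Spry1, Dusp4, Dusp6 and Fgfr1 were higher in KO_F (5.63% of all genes were called higher), and Fgf7, Fgf2 and Dusp5 were lower (5.84% called lower). The median log2 fold change of the members was -0.15 and the median absolute change 0.25, beside -0.02 and 0.13 over all tested genes. After median-of-ratios scaling, the female calls over all genes split into 841 higher and 577 lower in place of 704 and 730, while the members kept 4 higher and 3 lower. The difference between the male and female changes was tested directly as a sex by genotype term over the 12 libraries, and 10 of 21 members passed it (47.6%), against 13% of all tested genes. Fgf5 entered the tests through the other groups, since its mean in KO_M was under 1 TPM, so the shares describe the tested members and not all 38. The members were also chosen with earlier results of these data known, so these shares are no test of the set. The summed TPM of the epithelial list fell, and that of the fibroblast list rose, from WT to KO libraries in both sexes, as given above. Msln also fell in both sexes, and Pax8 and Pax2 were high in KO_M alone. The mean of Emx2 rose in both sexes, and that of Wt1 rose in male and fell in female cells. These marker differences ran alongside the changes of the members, and their part in them was not tested.

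**Figure D2:**
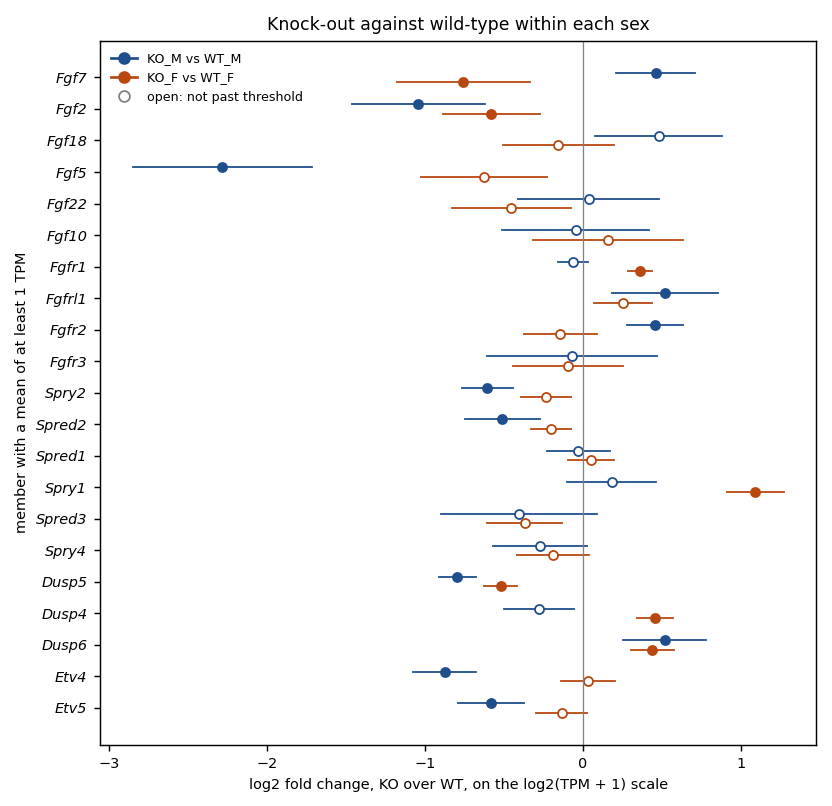
Log2 fold change of KO over WT on the log2(TPM + 1) scale for the 21 tested members, in male (blue) and female (orange) cells, with 95% confidence intervals from limma as bars. Filled points passed an adjusted p of 0.05. Fgf5 in male cells lies farthest to the left at -2.29 and Spry1 in female cells farthest to the right at 1.09.

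Among the ligands, Fgf2 was called lower in KO_M and KO_F, the latter call being lost in 5 of 6 fits with a library left out, Fgf5 was lower in KO_M, and Fgf7 moved in opposite directions in the sexes. Fgf2, a broadly acting mitogen for fibroblasts (ENSMUSG00000037225.13, chr3:37348346-37410108), stood at 8.28, 8.33 and 12.7 TPM in WT_M replicates 1 to 3 and at 3.78, 3.98 and 4.69 in KO_M. In WT_F it stood at 7.63, 10.3 and 8.81 TPM and in KO_F at 5.21, 5.56 and 6.04. Every KO library lay below every WT library of the same sex. Fgf2 changed by a log2 fold change of -1.04 (standard error 0.18, limma adjusted p = 0.00716) in male cells and -0.58 (standard error 0.13, limma adjusted p = 0.0330) in female cells. These changes were not shown to differ (sex by genotype -0.46, standard error 0.23, limma adjusted p = 0.233). The female call was kept in 1 of the 6 fits that left out a library, the one without WT_F replicate 1, and was lost without each of the other libraries (limma adjusted p up to 0.0989) and without a filter on low values.

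Fgf5, a ligand best known for ending the growth phase of the hair follicle (ENSMUSG00000029337.2, chr5:98254184-98277030), had the largest change of any member. Its levels were 6.51, 10.2 and 8.91 TPM in WT_M and 1.28, 0.428 and 1.21 in KO_M, a ratio of means of 0.114. The KO_M libraries lay far below the lowest WT_M library. In female cells Fgf5 stood at 3.99, 3.28 and 4.43 TPM in WT_F and at 1.68, 2.50 and 2.35 in KO_F, again without overlap but with a smaller gap. The male log2 fold change was -2.29 (standard error 0.24, limma adjusted p = 0.000826), and -3.11 with a pseudocount of 0.1. The female change of -0.63 missed the threshold (standard error 0.17, limma adjusted p = 0.0589), while the sex by genotype difference passed it at -1.66 (standard error 0.30, limma adjusted p = 0.00363).

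Fgf7, the keratinocyte growth factor through which mesenchymal cells act on epithelium (ENSMUSG00000027208.14, chr2:126034658-126091185), was the most abundant ligand in every library. It stood at 24.2, 19.9 and 20.7 TPM in WT_M and at 27.2, 29.6 and 33.5 in KO_M. In WT_F it stood at 28.7, 28.3 and 29.1 TPM and in KO_F at 16.9, 12.4 and 21.6. KO_M therefore lay above WT_M and KO_F below WT_F, each without overlap. The log2 fold change was 0.46 in male cells (standard error 0.11, limma adjusted p = 0.0214) and -0.76 in female cells (standard error 0.18, limma adjusted p = 0.0394). Each of these calls held in 2 of the 6 fits with a library left out. The male call was lost without WT_M replicate 2 or 3 or KO_M replicate 2 or 3 (limma adjusted p up to 0.0748), and the female call without any 1 of the WT_F libraries or KO_F replicate 1 (limma adjusted p up to 0.112). Without a filter on low values both were lost (limma adjusted p = 0.0727 in male and 0.131 in female cells), and without a mean-variance trend the female call was (limma adjusted p = 0.0691). The difference between the sexes was firmer, at 1.22 (standard error 0.22, limma adjusted p = 0.00319), and held in all 12 fits that left out a library.

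The remaining tested ligands, Fgf10, Fgf18 and Fgf22, passed none of these 3 tests. Fgf18, a ligand of skeletal and lung development, ranged from 3.28 to 5.11 TPM in WT_M, 5.93 to 6.93 in KO_M, 2.43 to 3.14 in WT_F and 2.14 to 2.77 in KO_F. The KO_M libraries held more Fgf18 than any other library, and the difference from KO_F passed the test between the sexes. Fgf10, the mesenchymal ligand of limb and lung budding, ranged from 0.771 to 1.80 TPM over the 12 libraries, and Fgf22 from 0.808 to 2.33. The summed TPM of the 17 secreted ligands was 47.4 to 50.6 in WT_M, 42.0 to 47.8 in KO_M, 47.7 to 51.1 in WT_F and 25.9 to 36.2 in KO_F, so that KO_F lay below the other groups.

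The promoter windows of Fgf2 and Fgf5 are shown because Fgf2 was called lower in both sexes and Fgf5 had the largest change of any member, in male cells. Each holds 250 bases before and 50 from the transcription start, from the RefSeq promoter table of GRCm38.p6, on the plus strand, written 5′ to 3′. Capitals mark a match to CCGGAA, the core of Ets factor sites to which Pea3 proteins belong, on either strand. Fgf2 lies at chr3:37348403-37348702 and Fgf5 at chr5:98253934-98254233.
Fgf2: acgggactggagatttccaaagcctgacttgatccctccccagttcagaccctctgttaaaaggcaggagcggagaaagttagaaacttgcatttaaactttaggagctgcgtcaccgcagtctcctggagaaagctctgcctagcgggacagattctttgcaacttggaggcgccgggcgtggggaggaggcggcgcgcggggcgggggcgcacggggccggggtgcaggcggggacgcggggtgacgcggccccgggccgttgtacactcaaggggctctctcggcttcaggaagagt
Fgf5: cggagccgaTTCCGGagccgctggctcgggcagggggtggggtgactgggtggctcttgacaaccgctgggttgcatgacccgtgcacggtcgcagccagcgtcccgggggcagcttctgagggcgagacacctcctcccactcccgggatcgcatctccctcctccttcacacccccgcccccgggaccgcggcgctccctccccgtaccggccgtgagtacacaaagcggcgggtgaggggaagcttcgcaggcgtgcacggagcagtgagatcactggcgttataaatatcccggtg
The Fgf5 window holds 1 match, whose first base lies at -241 from the start, and the Fgf2 window none. Of all 32851 mouse promoter windows in the table, 14.9% hold CCGGAA, as do the windows of 5 members (Fgf5, Fgf12, Fgfr4, Fgfrl1 and Spry2). Windows were found for 28 of the 38 members, 37 windows in all, and for 17 of the 21 tested.

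Among the receptors, Fgfr1 was higher in KO_F, and Fgfr2 and Fgfrl1 were higher in KO_M. Fgfr1 (ENSMUSG00000031565.18, chr8:25513654-25575718), the main FGF receptor of mesenchymal cells, supplied 82.6% to 92.8% of the summed TPM of Fgfr1 to Fgfr4 in a library. Its levels were 139, 149 and 141 TPM in WT_M, 138, 136 and 137 in KO_M, 157, 156 and 162 in WT_F and 208, 198 and 205 in KO_F. The KO_F libraries stood above all others, while KO_M lay just below the lowest WT_M library. In female cells the log2 fold change was 0.36 (standard error 0.032, limma adjusted p = 0.00105), and in male cells it was -0.06 (standard error 0.041, limma adjusted p = 0.317, 95% confidence interval -0.16 to 0.03). The difference passed at -0.43 (standard error 0.049, limma adjusted p = 0.000139).

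Fgfr2 (ENSMUSG00000030849.18, chr7:130162451-133123350), whose isoforms divide between epithelium and mesenchyme, changed in the other sex. It stood at 17.5, 15.8 and 18.0 TPM in WT_M and at 24.6, 23.3 and 23.7 in KO_M. In WT_F it stood at 16.1, 13.9 and 13.9 TPM and in KO_F at 12.02, 14.3 and 13.0. KO_M was thus separate from WT_M, whereas KO_F overlapped WT_F. Its log2 fold change was 0.46 in male cells (standard error 0.075, limma adjusted p = 0.00604) and -0.15 in female cells (standard error 0.097, limma adjusted p = 0.387), with a difference of 0.60 (standard error 0.12, limma adjusted p = 0.00555). Values per gene do not tell the receptor isoforms apart, so the epithelial and mesenchymal forms were not separated here.

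Fgfrl1 (ENSMUSG00000008090.14, chr5:108692382-108706924), a receptor without a kinase domain, stood at 53.9, 39.8 and 60.8 TPM in WT_M and at 72.7, 71.9 and 75.1 in KO_M. In female cells it stood at 73.4, 60.0 and 62.9 TPM in WT_F and at 80.4, 75.8 and 77.6 in KO_F. KO libraries were above WT libraries in each sex. The male change of 0.52 passed narrowly (standard error 0.14, limma adjusted p = 0.0402) and the female change of 0.25 did not (standard error 0.077, limma adjusted p = 0.0857), and the changes were not shown to differ (0.27, standard error 0.18, limma adjusted p = 0.391). The male call was lost in 4 of the 6 fits with a library left out, namely without WT_M replicate 1 or any 1 of the KO_M libraries, with limma adjusted p of up to 0.112. It was also lost without a filter on low values (limma adjusted p = 0.144) and without a mean-variance trend (limma adjusted p = 0.0737). The female change passed without WT_F replicate 1, at 0.34 with a limma adjusted p of 0.0227. Fgfr3 ranged from 2.82 to 5.47 TPM over the 12 libraries and Fgfr4 from 0.0299 to 0.719. The summed TPM of Fgfr1 to Fgfr4 was 160 to 171 in WT_M, 163 to 167 in KO_M, 175 to 180 in WT_F and 218 to 224 in KO_F.

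**Figure D3:**
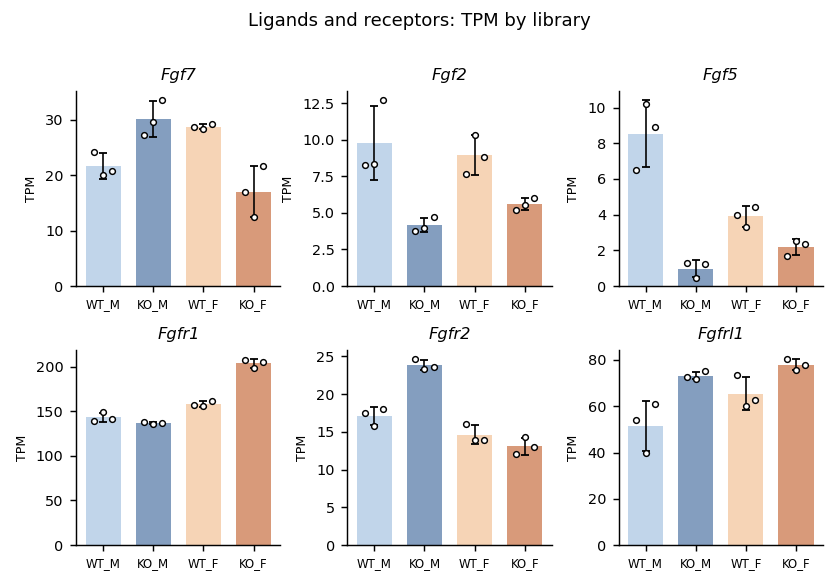
TPM of 3 ligands (top) and 3 receptors (bottom) by group, with bars for the mean of 3 libraries, error bars for the SD and circles for the libraries. Each vertical axis starts at 0 and has its own scale. Fgf7 is higher in KO_M than WT_M and lower in KO_F than WT_F, and Fgf5 is at 0.972 TPM on average in KO_M against 8.54 in WT_M.

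The 2 tested Pea3 factors, Etv4 and Etv5, were lower in KO_M and not called in KO_F. Etv4 (ENSMUSG00000017724.14, chr11:101769742-101785371), an Ets transcription factor induced by FGF and ERK signalling, stood at 53.9, 59.9 and 62.1 TPM in WT_M and at 28.8, 31.5 and 34.3 in KO_M. In female cells it stood at 96.7, 93.5 and 96.1 TPM in WT_F and at 109, 88.8 and 96.9 in KO_F. The KO_M libraries lay below all others, and KO_F overlapped WT_F. Etv4 had a log2 fold change of -0.88 in male cells (standard error 0.084, limma adjusted p = 0.00054) and 0.03 in female cells (standard error 0.072, limma adjusted p = 0.807, 95% confidence interval -0.14 to 0.20). Their difference was -0.91 (standard error 0.12, limma adjusted p = 0.000277).

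Etv5 (ENSMUSG00000013089.15, chr16:22381309-22439719), its close relative, was likewise lowest in KO_M, at a lower level overall. It stood at 16.6, 14.6 and 15.6 TPM in WT_M, 9.69, 9.82 and 10.7 in KO_M, 22.2, 21.2 and 20.9 in WT_F and 18.8, 18.8 and 20.8 in KO_F. The gap between WT_M and KO_M was wider than the range within either group, and that between WT_F and KO_F was not. The male log2 fold change was -0.58 (standard error 0.088, limma adjusted p = 0.00425), the female change -0.14 (standard error 0.068, limma adjusted p = 0.256, 95% confidence interval -0.30 to 0.03) and the difference -0.45 (standard error 0.10, limma adjusted p = 0.0132).

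The phosphatases did not move together: Dusp5 was lower and Dusp6 higher in the KO libraries of both sexes, and Dusp4 was higher in KO_F. Dusp5 (ENSMUSG00000034765.6, chr19:53529109-53542431), a nuclear phosphatase of ERK, stood at 72.0, 76.1 and 77.6 TPM in WT_M and at 42.4, 43.5 and 42.8 in KO_M. In female cells it stood at 92.0, 93.2 and 92.4 TPM in WT_F and at 67.2, 61.1 and 64.3 in KO_F. Within each sex the KO libraries lay well below the WT libraries, and KO_M below KO_F. Its log2 fold change was -0.80 in male cells (standard error 0.049, limma adjusted p = 7.1e-05) and -0.52 in female cells (standard error 0.044, limma adjusted p = 0.000925). The male change was the larger, by -0.27 (standard error 0.062, limma adjusted p = 0.0131).

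Dusp6 (ENSMUSG00000019960.8, chr10:99263231-99267489), a cytoplasmic phosphatase of ERK that is widely read as a marker of FGF signalling, stood at 15.9, 14.1 and 12.7 TPM in WT_M and at 19.2, 23.2 and 20.0 in KO_M. In female cells it stood at 42.0, 39.9 and 38.8 TPM in WT_F and at 55.4, 57.4 and 51.7 in KO_F. The KO libraries were above the WT libraries in each sex, and all female libraries above all male ones. The log2 fold change was 0.52 in male cells (standard error 0.11, limma adjusted p = 0.0172) and 0.44 in female cells (standard error 0.057, limma adjusted p = 0.00529). No difference between the sexes was shown (0.08, standard error 0.13, limma adjusted p = 0.766, 95% confidence interval -0.20 to 0.36). The male call was lost without WT_M replicate 2 or WT_M replicate 3, with limma adjusted p of 0.0540 and 0.0575. Without a filter on low values it was lost as well (limma adjusted p = 0.0575).

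Dusp4 (ENSMUSG00000031530.6, chr8:34807297-34819894), a nuclear phosphatase that acts on several MAP kinases, stood at 23.7, 21.8 and 19.8 TPM in WT_M and at 16.6, 19.3 and 17.3 in KO_M. In female cells it stood at 38.8, 39.2 and 36.5 TPM in WT_F and at 54.1, 52.0 and 52.0 in KO_F. KO_F was above every other library, and KO_M lay below WT_M by a narrow gap. The female log2 fold change was 0.46 (standard error 0.048, limma adjusted p = 0.00225) and the male change -0.28 (standard error 0.094, limma adjusted p = 0.0777), with a difference of -0.74 (standard error 0.10, limma adjusted p = 0.000579). The male change passed when all 12 libraries shared 1 fit (limma adjusted p = 0.0147) and after quantile normalization (limma adjusted p = 0.0479).

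The windows of Dusp5 and Dusp6 are shown because these 2 phosphatases moved in opposite directions in both sexes. They come from the same RefSeq table, on the plus strand of GRCm38.p6, at chr19:53528895-53529194 and chr10:99262981-99263280. Capitals mark matches to the CArG box, the site of serum response factor, or to TGACGT, the core of cAMP response elements, on either strand.
Dusp5: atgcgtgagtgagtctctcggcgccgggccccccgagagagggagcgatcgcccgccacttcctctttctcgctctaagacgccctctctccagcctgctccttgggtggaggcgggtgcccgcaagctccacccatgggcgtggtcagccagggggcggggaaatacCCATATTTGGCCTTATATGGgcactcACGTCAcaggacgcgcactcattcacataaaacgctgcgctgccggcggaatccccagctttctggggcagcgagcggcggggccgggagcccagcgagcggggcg
Dusp6: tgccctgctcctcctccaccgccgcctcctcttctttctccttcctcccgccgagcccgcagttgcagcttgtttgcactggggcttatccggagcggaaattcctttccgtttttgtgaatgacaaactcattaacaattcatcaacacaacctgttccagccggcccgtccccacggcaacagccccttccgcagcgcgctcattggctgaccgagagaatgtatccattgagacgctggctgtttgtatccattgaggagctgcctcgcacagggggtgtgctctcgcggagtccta
The Dusp5 window holds a pair of CArG boxes side by side, with first bases at -82 and -72, and a TGACGT match on the other strand at -56, whereas the Dusp6 window holds no match to any motif searched. A CArG box is present in 1.63% of all windows and, among members, in that of Dusp5. TGACGT is present in 7.51% of all windows and in those of Dusp5, Spred2, Fgf9 and Fgf12. The AP-1 site TGANTCA (7.81% of all windows) was found for Fgf12 and Fgf13. The sites of the ERK-regulated repressor Cic, TGAATGAA (1.3%) and TGAATGGA (1.21%), were found for Spred3 and Fgf23. All motifs were searched on both strands. A match describes the letters of these windows, and no match says nothing of sites elsewhere.

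Among the Sprouty and Spred genes, Spry1 was higher in KO_F, and Spry2 and Spred2 were lower in KO_M. Spry1 (ENSMUSG00000037211.12, chr3:37639947-37644598), an inhibitor of receptor signalling to Ras, stood at 5.88, 7.52 and 6.68 TPM in WT_M, 8.25, 7.65 and 7.18 in KO_M, 6.86, 6.58 and 7.12 in WT_F and 15.7, 16.0 and 15.5 in KO_F. KO_F stood above the other 9 libraries, and KO_M overlapped WT_M. Spry1 had a log2 fold change of 1.09 in female cells (standard error 0.076, limma adjusted p = 0.000414) and 0.18 in male cells (standard error 0.12, limma adjusted p = 0.330, 95% confidence interval -0.10 to 0.46), with a difference of -0.91 (standard error 0.13, limma adjusted p = 0.000683).

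Spry2 (ENSMUSG00000022114.5, chr14:105891947-105896819), the most abundant Sprouty gene, went the other way. It stood at 38.8, 42.8 and 41.3 TPM in WT_M, 28.2, 25.5 and 26.0 in KO_M, 40.6, 37.1 and 38.7 in WT_F and 35.5, 31.6 and 31.6 in KO_F. KO libraries lay below WT libraries in each sex, and KO_M below KO_F. The male log2 fold change of -0.61 passed (standard error 0.067, limma adjusted p = 0.0011) and the female change of -0.23 did not (standard error 0.067, limma adjusted p = 0.0731), though it did when all 12 libraries shared 1 fit (limma adjusted p = 0.0381). The difference of -0.37 (standard error 0.093, limma adjusted p = 0.0213) was lost without WT_M replicate 2, KO_M replicate 3 or WT_F replicate 2, at limma adjusted p of 0.0524, 0.0507 and 0.0534.

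Spred2 (ENSMUSG00000045671.17, chr11:19924375-20024026), an inhibitor of Ras and Raf signalling at the membrane, stood at 34.1, 35.1 and 34.7 TPM in WT_M, 22.1, 28.2 and 22.2 in KO_M, 36.5, 36.4 and 37.7 in WT_F and 33.5, 31.4 and 30.8 in KO_F. KO_M replicate 2 was the highest of its group and still below WT_M. The log2 fold change was -0.51 in male cells (standard error 0.10, limma adjusted p = 0.0119) and -0.20 in female cells (standard error 0.053, limma adjusted p = 0.0562). The difference of -0.31 was not called (standard error 0.12, limma adjusted p = 0.114), except without KO_M replicate 2, where it was -0.42 (limma adjusted p = 0.00338), and after quantile normalization (limma adjusted p = 0.0462). Spred1 ranged from 20.5 to 24.3 TPM in male and 26.8 to 30.0 in female libraries, and Spred3 from 3.94 to 11.6 over all 12. Spred3 averaged 8.01 TPM in WT_M, 5.96 in KO_M, 10.7 in WT_F and 8.08 in KO_F. Its KO libraries lay below its WT libraries in each sex. Spry4 stood at 3.46 ± 0.219 TPM in WT_M, 2.69 ± 0.128 in KO_M, 8.19 ± 0.410 in WT_F and 7.05 ± 0.513 in KO_F (SD, n = 3 each). These 3 genes passed neither knock-out comparison nor the test of the difference.

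**Figure D4:**
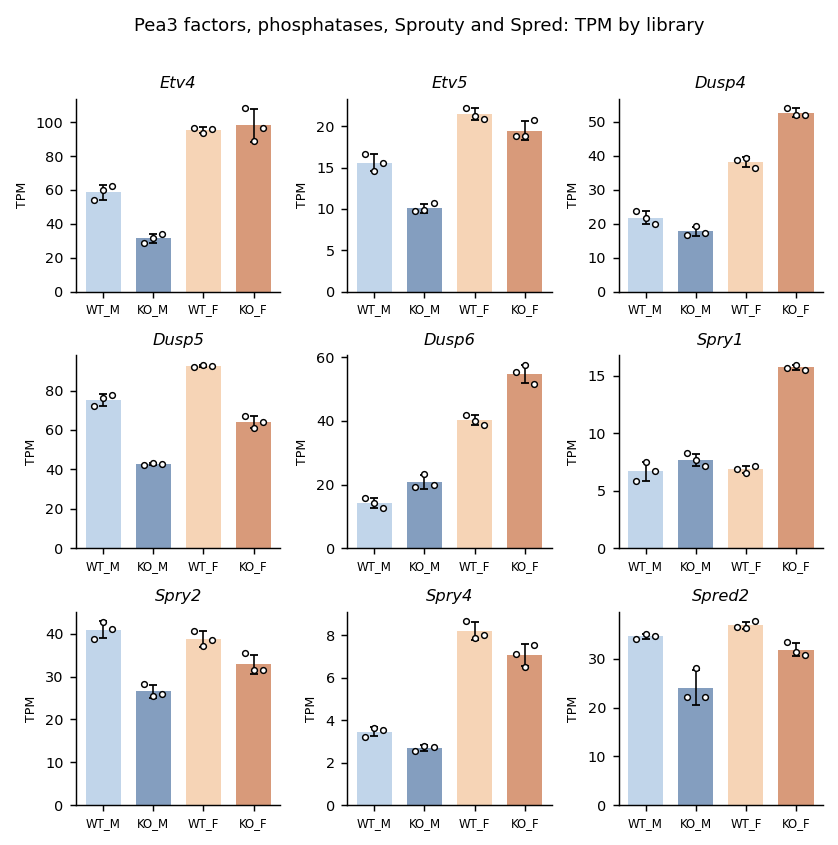
TPM of the Pea3 factors Etv4 and Etv5, the 3 phosphatases and 4 Sprouty or Spred genes by group, with bars for the mean of 3 libraries, error bars for the SD and circles for the libraries. Each vertical axis starts at 0 and has its own scale. Dusp5 is lower in the KO libraries of both sexes, Dusp6 higher in both, and Spry1 is near 15.7 TPM in KO_F against 6.85 in WT_F.

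Feedback genes were mostly lower in male than in female cells, in both genotypes. Between WT_M and WT_F, 9 of 21 members were called (42.9%), against 12.8% of all tested genes. Fgf5 was higher in WT_M (6.26% of all genes were called higher), and Dusp6, Spry4, Dusp4, Etv4, Etv5, Fgf7, Dusp5 and Spred1 were lower (6.56% called lower). The 3 phosphatases and the 2 tested Pea3 factors were all among the lower genes. Dusp6 had the largest of the differences to lower levels, with a log2 fold change of -1.44 (standard error 0.089, limma adjusted p = 0.000159). Dusp4 was lower in WT_M by -0.78 (limma adjusted p = 0.00108) and Etv4 by -0.70 (limma adjusted p = 0.000572). Spry4, at 3.21 to 3.64 TPM in WT_M and 7.89 to 8.66 in WT_F, showed no overlap of the groups. Fgf5 was higher by 0.95 (standard error 0.18, limma adjusted p = 0.0152), a call lost without WT_M replicate 3, WT_F replicate 1 or WT_F replicate 2 (limma adjusted p up to 0.0615). The Fgf7 call was kept without WT_M replicate 1 and lost without each of the other 5 libraries, and that of Spred1 was lost without each of the 6. None of the 4 tested receptors was called here by limma, while 2 had an unadjusted p under 0.05.

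Between KO_M and KO_F, 14 of 21 members were called (66.7%), against 16.6% of all tested genes. Fgf18, Fgf7 and Fgfr2 were higher in KO_M (8.17% of all genes were called higher), and the other 11 were lower (8.39% called lower): Etv4, Dusp4, Dusp6, Spry4, Spry1, Etv5, Fgfr1, Dusp5, Spred2, Spred1 and Spry2. Etv4 differed most, by -1.61 (standard error 0.092, limma adjusted p = 6.14e-05), then Dusp4 by -1.52 (standard error 0.071, limma adjusted p = 2.25e-05) and Dusp6 by -1.36 (standard error 0.085, limma adjusted p = 8.54e-05). Spry1 and Fgfr1, at -0.94 and -0.57, were called here and not between the WT groups, and both passed the sex by genotype test given above. Fgfr1 did pass between the WT groups without WT_M replicate 2 (limma adjusted p = 0.0397) and when all 12 libraries shared 1 fit (limma adjusted p = 0.0154). The calls for Spry2, Spred2 and Spred1 were each kept in 1 of 6 fits with a library left out, those without KO_M replicate 1 (Spry2) or KO_M replicate 2 (Spred2 and Spred1). That for Fgf7 was kept without KO_F replicate 2 or 3 and lost without each of the other 4. These comparisons share their libraries with the knock-out comparisons and are no separate evidence for them.

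The other genes of the pathway were described from 4 lists. The lists were chosen with earlier results of these data known. Their called shares beside those of all genes are therefore descriptive and no test of the lists. Of 21 genes of the signal relay from receptor to ERK, 5 were called between KO_M and WT_M, 1 higher and 4 lower (23.8%, near the 21.6% of all genes). Mapk3, encoding ERK1, was higher by 0.39 (standard error 0.042, limma adjusted p = 0.000991). The adaptor gene Frs2 was lower by -0.51 (standard error 0.073, limma adjusted p = 0.00336). Between KO_F and WT_F the list had 1 call, the Raf kinase gene Araf, at -0.26 (standard error 0.060, limma adjusted p = 0.0384), which was lost without 5 of the 6 libraries taken singly (limma adjusted p up to 0.114). The median log2 fold change of the list was 0.04 in male and -0.05 in female cells, beside -0.02 in each over all genes.

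Of 19 ERK-responsive genes outside the members, 13 were called in male cells (68.4%, against 21.6% of all genes), 4 higher and 9 lower, and 9 in female cells (47.4%, against 11.5%), 1 higher and 8 lower. The list's median log2 fold change was -0.13 in male and -0.21 in female cells, beside -0.02 in each over all genes. In KO_M the phosphatase gene Dusp1, which is also induced by stress, was higher by 1.22 (standard error 0.087, limma adjusted p = 0.000141). Cyclin D1 (Ccnd1) was lower by -1.07 (standard error 0.048, limma adjusted p = 1.92e-05), Hmga2, a chromatin protein of growing embryonic cells, by -0.96 (standard error 0.039, limma adjusted p = 1.4e-05) and Plaur, the urokinase receptor gene, by -0.92 (standard error 0.040, limma adjusted p = 1.76e-05). In KO_F Ccnd1 was instead higher by 0.61 (standard error 0.048, limma adjusted p = 0.000721), giving a sex by genotype difference of -1.68 (standard error 0.063, limma adjusted p = 3.6e-08). Phlda1, Ier3 and Fosl1 were lower in KO_F, by -0.53, -0.47 and -0.46.

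Of 24 tested cofactor and heparan sulfate genes (28 listed), 14 were called in male cells (58.3%, against 21.6% of all genes), 8 higher and 6 lower, and 7 in female cells (29.2%, against 11.5%), 6 higher and 1 lower. The male count was 9 without WT_M replicate 3. The list's median log2 fold change was 0.07 in male and 0.12 in female cells. Hs3st1, a sulfotransferase of heparan sulfate, was lower in KO_M by -2.05 (standard error 0.16, limma adjusted p = 0.000231). The endosulfatase genes Sulf1 and Sulf2, whose products remove sulfate groups from heparan sulfate, moved in opposite directions in both sexes. Sulf1 was lower by -1.29 in male and -0.66 in female cells (limma adjusted p = 3.6e-05 and 0.000959), and Sulf2 was higher by 1.07 and 0.52 (limma adjusted p = 2.03e-05 and 0.00188). Among the glypicans, which carry heparan sulfate, Gpc3 was higher in KO_M by 1.05 (limma adjusted p = 2.65e-05) and Gpc4 in KO_F by 0.68 (limma adjusted p = 0.00077). Gpc1 was lower in KO_M by -0.31 (limma adjusted p = 0.00185). The syndecan gene Sdc3 was higher in KO_F by 0.36 (limma adjusted p = 0.00912).

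Of 14 other negative regulators of ERK signalling, 6 were called in male cells (42.9%, against 21.6% of all genes), 2 higher and 4 lower, and 3 in female cells (21.4%, against 11.5%), 1 higher and 2 lower. The female count was 1 or 2 with any 1 library left out. The list's median log2 fold change was -0.06 in male and -0.03 in female cells. In KO_M the phosphatase gene Dusp2 was higher by 0.91 (limma adjusted p = 0.0116), and Lrig1, Il17rd and Dusp10 were lower by -0.76, -0.71 and -0.66 (limma adjusted p = 0.000238, 0.0163 and 0.00346). The Il17rd call was lost without WT_M replicate 1, KO_M replicate 1 or KO_M replicate 3 (limma adjusted p up to 0.0560). In KO_F Dusp9 was higher by 0.37 (limma adjusted p = 0.0349), and Dusp10 and Errfi1 were lower by -0.37 and -0.29 (limma adjusted p = 0.0329 and 0.00818). The Dusp9 and Dusp10 calls were each kept in 1 of the 6 fits with a library left out (limma adjusted p up to 0.103). Both were also lost without a filter on low values and with the replicate number as a block. The Errfi1 call held in all 6 fits with a library left out.

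**Figure D5:**
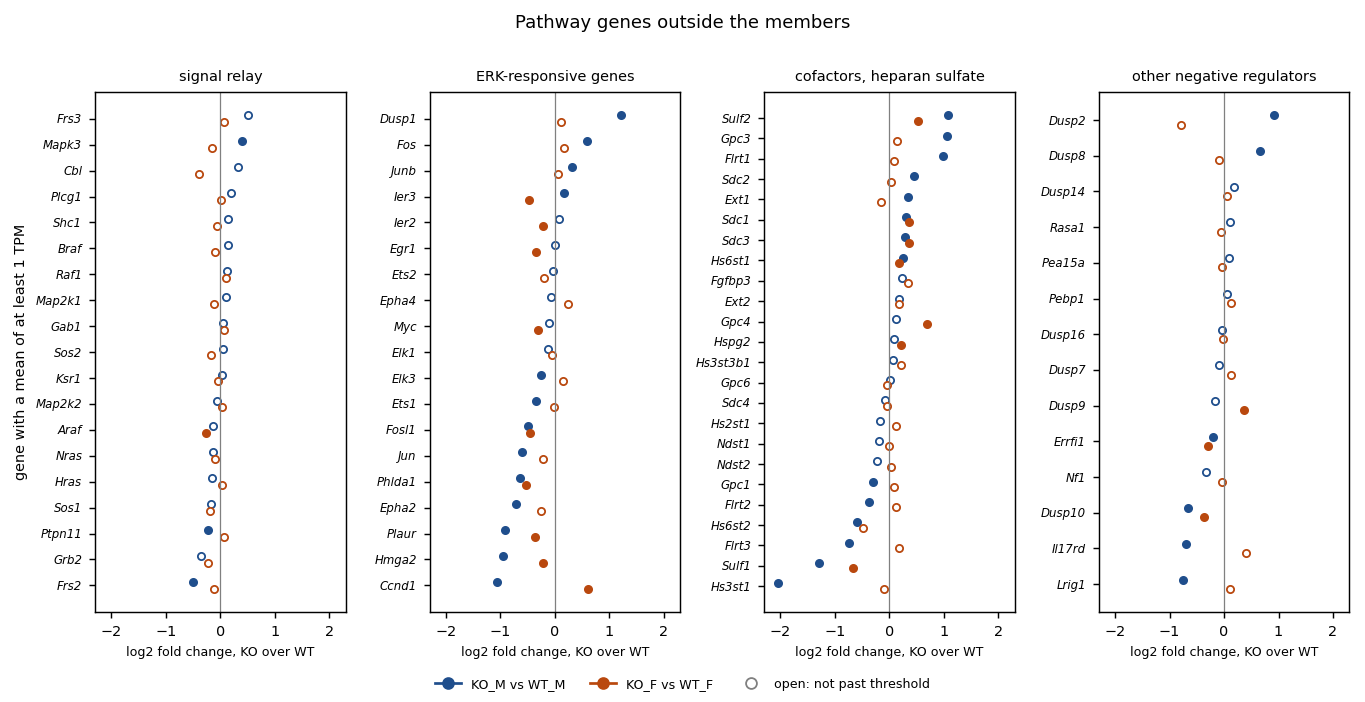
Log2 fold change of KO over WT on the log2(TPM + 1) scale for tested genes of the 4 pathway lists (2 are not shown), in male (blue) and female (orange) cells, with genes ordered by the male value. Filled points passed an adjusted p of 0.05 in limma. Hs3st1 in male cells lies farthest to the left at -2.05 and Dusp1 in male cells farthest to the right at 1.22, and Ccnd1 has opposite signs in the sexes.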

How the data were processed

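Polyadenylated RNA of 12 cultures (4 groups of 3, groups and replicate numbers from the sample titles) was sequenced. The deposited table holds TPM per gene, made by the authors with Salmon 1.10.1 on GRCm38 according to the submitters' processing notes, and summing to 1000000 per library. TPM carry no read totals, so depth and counting error are unknown. The counting of antisense or overlapping genes and the merging of transcripts into genes were not rechecked. Of the gene identifiers, 99.19% were matched to GENCODE M21 symbols.

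The 12504 genes averaging 1 TPM or more were tested as log2(TPM + 1) with limma 3.58.1 in R 4.3.3, with a mean-variance trend, over the 6 libraries compared or over all 12 for sex by genotype. P-values were adjusted by Benjamini-Hochberg over all tested genes, with a threshold of 0.05. Alternatives were another pseudocount (0.1), no filter or a mean of 5 TPM, median-of-ratios or quantile scaling, no trend, 1 fit of all libraries, the replicate number as a block, and each library left out. The scripts were tested on simulated data. Members called in either knock-out comparison or in sex by genotype are given with statistics, the other tested members by TPM, those under the filter by their range, and up to 4 called genes with the largest changes per pathway list and comparison, of which 2 are not reported here. Members and lists were chosen with earlier results of these data known.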

Additional observations from a re-analysis of the deposited data

Results flagged for a closer look

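For 10 members the difference between KO and WT was not the same in male and female cells by the sex by genotype test over the 12 libraries. The value is the male log2 fold change minus the female one, on the log2(TPM + 1) scale, and all 10 passed limma's adjusted threshold. The male change was the lower for 8 members: Fgf5 with -1.66, Spry1 with -0.91, Etv4 with -0.91, Dusp4 with -0.74, Etv5 with -0.45, Fgfr1 with -0.43, Spry2 with -0.37 and Dusp5 with -0.27. It was the higher for Fgf7 with 1.22 and Fgfr2 with 0.60. Of these, Fgf7 had called changes of opposite sign in the sexes, and Dusp5 called changes of the same sign. Groups of 3 libraries were too small for a test of single outlying libraries.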

How the results depend on the processing

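With 3 libraries a group, unknown depth and an unknown number of lines, the tests describe these cultures. The number of members called stayed within 1.5 times its value under every alternative run: 8 to 13 in place of 11 between KO_M and WT_M, 5 to 8 in place of 7 between KO_F and WT_F, 9 to 11 in place of 10 for sex by genotype, 6 to 11 in place of 9 between WT_M and WT_F, and 10 to 15 in place of 14 between KO_M and KO_F. Fgf5, Fgf10, Fgf18, Fgf22 and Fgfr3 could not be fitted with a filter at a mean of 5 TPM, so the count under that filter is over fewer members. Over all genes, calls between KO_F and WT_F fell from 1434 to between 774 and 835 with a library left out and to 670 with the replicate number as a block, those between WT_M and WT_F from 1603 to as few as 1037, and those between KO_M and KO_F from 2070 to 1328 without KO_M replicate 3. Calls between KO_M and WT_M fell from 2707 to as few as 1813, without WT_M replicate 3. Those for sex by genotype fell from 1629 to as few as 1353, without WT_F replicate 3. Signs were followed for the 14 members called in a knock-out comparison or in sex by genotype, and not for the other tested members. Among the 14, signs turned for 3 changes that no fit called: Etv4 in female cells (-0.041 without KO_F replicate 1, and up to 0.10 without another library), and, between WT_M and WT_F, Fgf2 (-0.084 without WT_M replicate 3, up to 0.20 without another) and Spry1 (0.044 without WT_M replicate 1, down to -0.11 without another).

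Libraries with the same replicate number did not deviate together (mean correlation of their deviations between -0.0091 and 0.017 over the 4 comparisons, with 0 to 2 of 6 libraries closest to their own number), so the numbers were not taken to pair cultures. With the replicate block, members called numbered 10, 5, 10, 8 and 11 in the order above. The member calls lost between KO and WT were Fgf7 in male cells (limma adjusted p = 0.0546) and Fgf7 and Fgf2 in female cells (limma adjusted p = 0.0606 and 0.0700).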
